A study of Sus scrofa with 4 samples.

Results

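Distal peaks of histone H4 lysine 12 lactylation (H4K12la) were examined in the liver of late-gestation sows. A peak was called distal when its summit lay on chromosomes 1 to 18 and more than 50 kb from every annotated gene of any type in the Sscrofa11.1 RefSeq table. By this rule 3375 of 34018 peaks were distal: 2791 of the 28283 peaks of the high bile acid list and 584 of the 5735 peaks of the low bile acid list. The rule used distance from genes and no measured value, so it sets which genes can stand beside a distal peak, but it did not use peak strength or overlap between lists.

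H4K12la was mapped by chromatin immunoprecipitation and sequencing (ChIP-seq) in 2 groups of sows, a high bile acid group and a low one, which the series also calls normal. Each group has 1 immunoprecipitated library and 1 input library, 4 samples in all, from female animals, with the tissue labelled liver and the cell type hepatocytes. The series title refers to signalling through c-JUN and to cholestasis of pregnancy, in which bile flow from the liver is impaired. The labels do not say how many sows went into a library, and they give no other treatment, breed or age. With 1 library per group no difference between the lists has a replicate check, and no p-value between groups was computed. The p-values and q-values below are those of the authors' peak caller and compare a library with its own input.

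Lactylation is an acyl modification made from lactate and attached to lysines of histones, where it neutralises their positive charge as acetylation does. Acetylation and lactylation of histones are known mostly from active promoters and enhancers. Enhancers may lie far from the genes they serve, and many known long-range enhancers sit in wide stretches without genes beside genes for developmental transcription factors. The assignment of a distal peak to a gene is therefore by position alone: each peak is given here with the nearest coding gene on its left and on its right, and neither was shown to be its target.

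Total read numbers are not in the labels, but the lists allow the number of fragments at each summit to be recovered, since the caller's fold and p-value both follow from that number and the expected one. The caller's smallest expected number, its genome-wide background, was 1.98 in the high library and 1.94 in the low library. Expected numbers are in the caller's scaled units, in which a fragment counts as 1 in the high library and 0.881 in the low library. Low-list expected numbers are thus smaller than they would be in fragments. Fragments were recovered for all distal peaks, and the median distal peak rested on 9 fragments in either list. For 9 fragments, an exact Poisson 95% interval runs from 4.12 to 17.1. Intervals here cover counting error only, because PCR copies cannot be told from separate molecules when no molecular identifiers are used.

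Distal peaks made up shares of both lists whose intervals overlap. They were 9.89% of the autosomal peaks of the high list (2791 of 28222; exact Clopper-Pearson 95% interval 9.54 to 10.2%) and 10.2% of those of the low list (584 of 5730; 9.42 to 11%). The sequence that lies more than 50 kb from every gene is 421 Mb, 18.6% of the 2264 Mb between the first and the last gene of the chromosomes. Distal sequence therefore held 6.61 high-list peaks per Mb (exact Poisson 95% interval 6.37 to 6.86), 0.479 times the 13.8 per Mb found elsewhere. The low list had 1.39 per Mb (1.28 to 1.5), 0.497 times its 2.79 per Mb elsewhere. The high list was thus 4.77 times as dense as the low list in distal sequence and 4.94 times as dense in the rest.

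Peak density was lower farther from genes, and beyond 50 kb each farther class was less dense than the one before it in both lists. In the high list it was 24.9 per Mb within 1 kb outside a gene, 10.1 at 20 to 50 kb, 8.24 at 50 to 100 kb (7.79 to 8.71), 6.39 at 100 to 200 kb (5.97 to 6.83), 5.31 at 200 to 400 kb (4.86 to 5.79) and 4.21 beyond 400 kb (3.59 to 4.92). For the low list the corresponding values were 4.30, 2.07, 1.73 (1.53 to 1.96), 1.31 (1.12 to 1.52), 1.18 (0.972 to 1.42) and 0.806 (0.548 to 1.14). Sequence at 50 to 100 kb was 1.96 times as dense as sequence beyond 400 kb in the high list and 2.15 times in the low list.

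**Figure D1:**
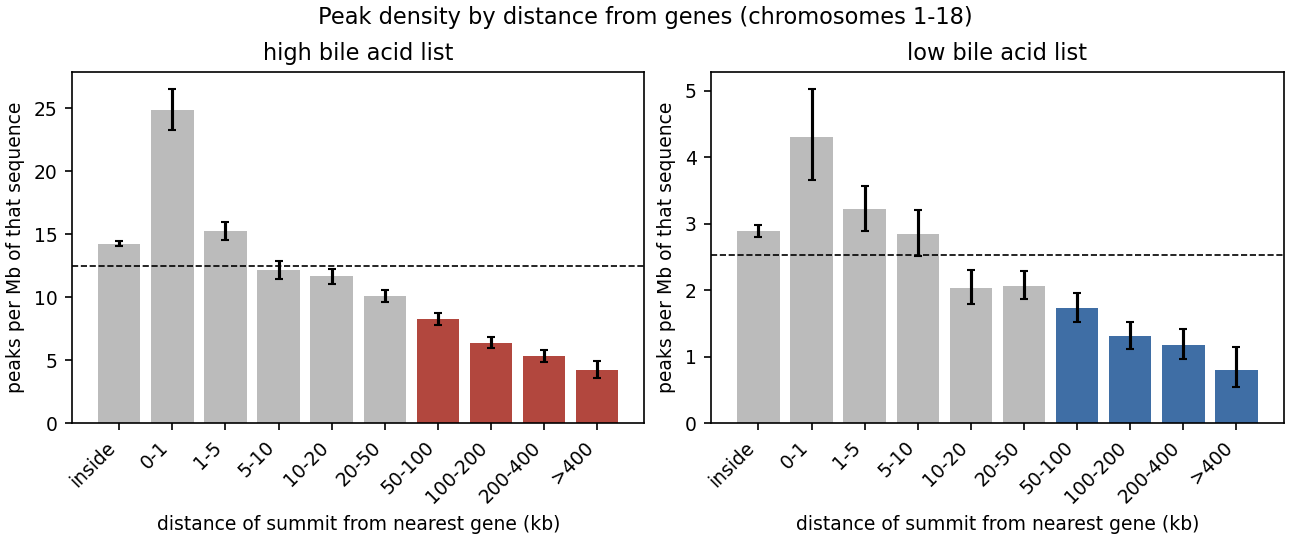
Peaks per Mb of sequence (vertical axis) by distance of the summit from the nearest gene in kb (horizontal axis), with exact Poisson 95% intervals; coloured bars are distal, grey bars are within 50 kb or inside genes, and the dashed line is the list's mean density. Density declines from 24.9 to 4.21 per Mb in the high list and from 4.30 to 0.806 in the low list between the class nearest to genes and the farthest.

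Single distal peaks had folds close to those of other peaks. Every listed peak had a caller's p-value of at most 0.00989, which sets a lowest fold for each expected number. Similar medians are thus partly fixed by that limit. The fold enrichment at the summit is the authors' ratio of the observed to the expected number, with 1 added to both. It is thus smaller than the plain ratio of these numbers. Its median was 2.93 in distal peaks of the high list (quartiles 2.60 and 3.28) and 2.89 in the other autosomal peaks of that list. In the low list both medians were 2.98. Distal folds ran from 1.75 to 5.03 (high) and from 2.18 to 4.39 (low). Distal peaks had median widths of 343 bp (high) and 324 bp (low), against 356 and 340 bp for the others. The background did differ: the caller used its genome-wide value, the lowest possible, for 30.6% of distal against 19.5% of other peaks in the high list (28.9 to 32.3% and 18.99 to 19.97%). For the low list these shares were 26.9% and 18.2% (23.3 to 30.7% and 17.2 to 19.3%). The horizontal bands in the plot of folds are peaks that share an expected number, such as this lowest one, and differ only in their whole number of fragments.

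A small share of the distal peaks passed a false discovery threshold. In the high list 41 distal peaks had a q of 0.05 or smaller, 1.47% of them (1.06 to 1.99%), against 2.13% of all autosomal peaks of that list. Of the 584 low-list members none did, which allows a share of up to 0.630%, against a background of 0.209%, and 572 of them (97.9%) had a q of 1. That last share was 97.4% among the other autosomal peaks of the low list (96.9 to 97.8%). A fold of 4 or more was reached by 86 distal peaks of the high list (3.08%; 2.47 to 3.79%), where the background was 3.14%. Of the low-list members 11 did so (1.88%; 0.944 to 3.35%), where the background was 1.38%. The share with a q of 0.05 or smaller was thus below that of the whole high list, and the shares with a fold of 4 or more lay near the background in both lists.

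**Figure D2:**
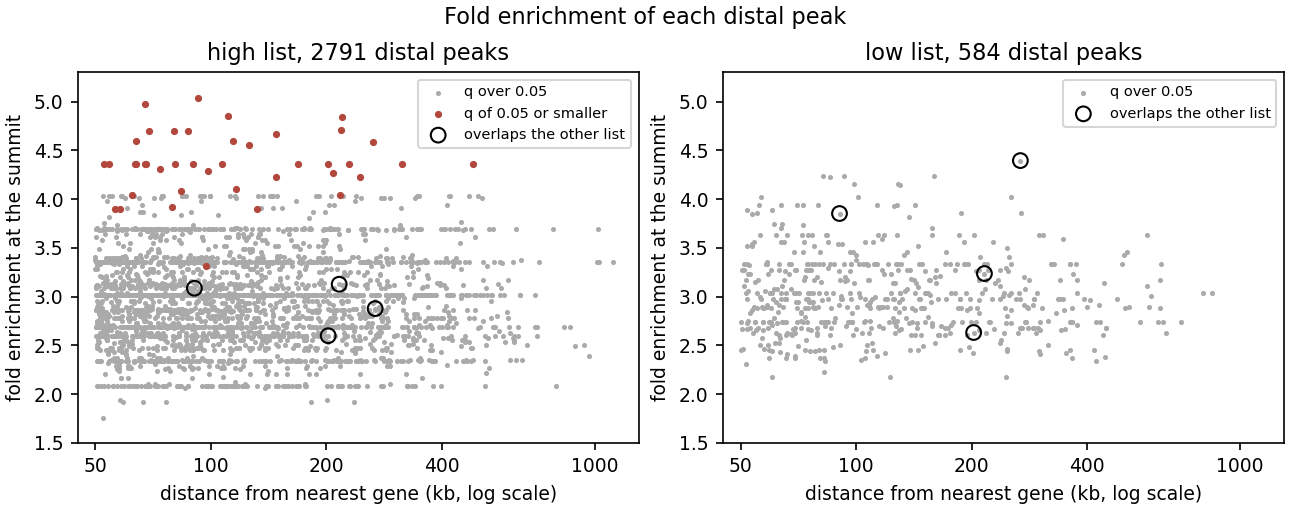
Fold enrichment at the summit (vertical axis) of each distal peak against its distance from the nearest gene in kb (horizontal log axis); coloured points have a q of 0.05 or smaller and circles mark the 4 positions where the lists overlap. The 41 coloured points of the high list have folds that round to 3.9 or more, except 1 of fold 3.31 between LOC110260582 and ALG10. The low list has none.

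The strongest distal peak of the high list lay between TBCA, a tubulin folding cofactor gene, and AP3B1, which encodes a subunit of the AP-3 adaptor of vesicle sorting. It spans chromosome 2, 86757115 to 86757577, 92.3 kb from TBCA and 119 kb from AP3B1. Its fold was 5.03 (q 0.00241) on 14 fragments (7.65 to 23.5) over 1.98 expected, and the nearest summit of the low list was 226 kb away. The next peak, of fold 4.97 (q 0.00274), lay at chromosome 15, 125026584 to 125027084, between the potassium channel subunit gene KCNE4 and the secretogranin gene SCG2. The distal peak with the smallest q, 0.00236, was at chromosome 8, 39407252 to 39407772, between SPATA18 and the deubiquitinase gene USP46, with a fold of 4.85 on 15 fragments over 2.30 expected. The nearest low-list summits to the KCNE4 and USP46 peaks were 676 kb and 65.8 kb away.

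Other distal peaks among the strongest of the high list bordered the following genes. A peak of fold 4.70 (q 0.0106) at chromosome 16, 50213521 to 50213899, lay between the homeobox gene MSX2 and LOC100738087. CDCA7 and SP3, the latter a zinc finger transcription factor gene, bordered a peak of fold 4.67 (q 0.007) at chromosome 15, 79751492 to 79751828. TCF7L2, which encodes an effector of Wnt signalling, and HABP2, which encodes a serine protease of blood plasma, bordered a peak of fold 4.60 (q 0.0112) at chromosome 14, 123718947 to 123719444, 172 kb and 175 kb from them.

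Further peaks of the high list named by fold or by q lay in the following places. Folds were 4.71 between LOC100519871 and the ubiquitin ligase gene CBLB (chromosome 13) and 4.70 both between MANEA and UFL1 (chromosome 1) and between GAREM1 and KLHL14 (chromosome 6). A peak between the zinc finger gene IKZF2 and SPAG16 (chromosome 15) had 4.60. The peak between IGFBP7 and LOC110261960 (chromosome 8) had 4.59, and the next coding gene on its right was 2306 kb away. Folds were 4.55 between the dynein gene DNAH5 and TRIO (chromosome 16), 4.36 between LOC102157778 and RIMS1, a gene of the presynaptic active zone (chromosome 1), and 4.28 between ACTL8 and IGSF21 (chromosome 6). Their q-values ran from 0.00622 to 0.031, and each rested on 12 to 14 fragments.

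The strongest distal peak of the low list overlapped a peak of the other list, which none of the named peaks above did. It spans chromosome 3, 48346773 to 48347097, 326 kb from SLC5A7, the choline transporter gene, and 268 kb from LOC102166005. Its fold was 4.39 (q 0.193) on 14 fragments (7.65 to 23.5), with 2.03 expected in the caller's scaled units. Its q was the smallest of all distal peaks of the low list. A low-list peak of fold 4.23 (q 0.318) lay between LOC102157705 and DPPA4, a gene of pluripotent cells, at chromosome 13, 148884149 to 148884450. A fold of 4.23 (q 0.598) was also reached between MDGA2 and the ribosomal protein gene RPS29 (chromosome 1), between MBIP and BRMS1L (chromosome 7) and between LOC110256111 and MYOCD, a coactivator gene of smooth muscle (chromosome 12).

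The other low-list peaks named by fold were as follows. BHLHE22, a helix-loop-helix factor gene, and YTHDF3, a reader of methylated RNA, bordered a peak of fold 4.15 on chromosome 4. CCDC91 and PTHLH, the gene of a parathyroid hormone-like peptide, bordered another of fold 4.15 on chromosome 5. The peak between the tetraspanin gene CD82 and the homeobox gene ALX4 on chromosome 2 had a fold of 4.14 and a width of 687 bp. Folds of 4.02 were found between CASTOR2 and AUTS2 (chromosome 3) and between ERRFI1, an inhibitor of the epidermal growth factor receptor, and SLC45A1 (chromosome 6). These 5 peaks had q-values of 0.598 or 0.735 and rested on 13 fragments each.

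The lists met at 4 distal positions. This is 0.143% of the distal high-list peaks (4 of 2791; 0.0391 to 0.367%), where 0.73% of all its autosomal peaks overlapped the other list. It is 0.685% of the distal low-list peaks (4 of 584; 0.187 to 1.74%), where the share of all was 3.61%. Among the peaks within 50 kb of genes the shares were 0.794% (0.689 to 0.911%) and 3.94% (3.43 to 4.51%), whose intervals did not meet those of the distal peaks. The 4 positions lie between KLF4, a zinc finger factor gene, and ACTL7B on chromosome 1, between SLC5A7 and LOC102166005 on chromosome 3, between POU3F1, a POU homeodomain gene, and RRAGC on chromosome 6, and between OPCML, a neuronal adhesion gene, and SPATA19 on chromosome 9.

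At these positions the folds of the lists were as follows. Near KLF4 the high list had 2.60 and the low list 2.63, with summits 318 bp apart, 202 kb from KLF4. The POU3F1 position had 3.13 on 14 fragments in the high list and 3.24 on 11 in the low list, with summits 68 bp apart at chromosome 6, 94317392 and 94317460. OPCML had 3.09 on 9 fragments and 3.85 on 12, with summits 65 bp apart. The SLC5A7 position had 2.88 on 8 fragments and 4.39 on 14. The Poisson intervals of the fragment counts, which were not scaled for depth, overlapped at each of the 4 positions. Total read numbers are not known, so this overlap does not show that lactylation was alike there.

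Where only 1 list has a call, the libraries were not shown to differ in lactylation there. To see how many calls were far from the other library's limit, the interval of each peak's fragments, multiplied by the caller's factor for that library, was set against the smallest pileup that the other library's list would have accepted over the same expected number. In the high list 43 distal peaks without an overlap (1.54%; 1.12 to 2.07%) had their interval at or above that limit, against 2.16% of all autosomal peaks. Among low-list members 10 did so (1.71%; 0.824 to 3.13%), against 1.94%. The high-list share lay below its background, the interval of the low-list share included it, and this count was chosen after values were seen. Without the caller's factor, which was 0.881 for the low library and 1 for the high library, the counts were 8 and 36. The 10 low-list peaks are those of highest fold named above other than the SLC5A7 peak, together with a peak of fold 4.02 between LRRN1 and LOC100514009 on chromosome 13.

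The stretch between CELF4 and PIK3C3 held some of the most remote peaks of both lists. Distal summits were a median of 111 kb (high) and 110 kb (low) from the nearest gene of any type. The farthest of the high list was 1118 kb from any gene, at chromosome 11, 40713606 to 40713900, between the protocadherin gene PCDH9 and KLHL1, with a fold of 3.36 on 9 fragments. The next 4, at 967 to 1023 kb, all lay on chromosome 6 between CELF4, an RNA-binding protein gene, and the lipid kinase gene PIK3C3. Of these, 3 stood within 8.52 kb of each other (122534446 to 122542965), with folds of 3.36, 3.69 and 3.36. A low-list peak of fold 3.04 lay in the same stretch, 799 kb from any gene and 233 kb from the nearest of the 3.

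The farthest of the low list was 845 kb from any gene, between EYS and LOC110259411 on chromosome 1, with a fold of 3.04. It was followed by peaks between RAPGEF2 and FSTL5 (704 kb, fold 2.74), between VRK1 and BCL11B, a zinc finger factor gene (642 kb, fold 2.63), and between INTU and the giant cadherin gene FAT4 (630 kb, fold 2.74). All of these low-list peaks had a q of 1 and rested on 8 or 9 fragments. The 10 remote peaks had folds of 2.39 to 3.69, on both sides of the medians of 2.93 and 2.98.

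Width set other peaks apart. The widest distal peak of the high list, 1096 bp, lay 76.5 kb from KIRREL3 on the side towards ETS1, a gene of an ETS transcription factor, at chromosome 9, 54142877 to 54143972, with a fold of 3.69. It was followed by peaks between SPRY4 and the growth factor gene FGF1 (964 bp, fold 2.60), CAMK1G and PLXNA2 (943 bp, fold 2.75), BET1 and the collagen gene COL1A2 (923 bp, fold 1.91), and SLC44A3 and F3, the tissue factor gene (915 bp, fold 3.21). The widest of the low list, 804 bp, lay at chromosome 6, 94240239 to 94241042, between POU3F1 and RRAGC, 77.0 kb from the overlapping pair described above, with a fold of 3.18. Other wide low-list peaks were the CD82 peak (687 bp), a second peak beside SLC5A7 (669 bp, fold 3.30) and a peak between BCL6 and LOC106508360 (665 bp, fold 2.91).

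Peaks at the edge of the rule did not stand apart in fold. The 3 members nearest to the limit had folds of 3.38, 3.41 and 3.28 in the high list, at 50.014 to 50.040 kb beside SPATA16, beside SLC35C1 and between FAM217B and CDH4. Just outside it, at 49.860 to 49.877 kb, peaks beside PCNX1, beside SLC26A11 and between MYCN and DDX1 had 3.36, 3.64 and 2.60. The 3 nearest members of the low list, beside OTX2, between PCDH7 and ARAP2 and between TOMM20 and LOC110256820, had 2.74, 2.45 and 2.67 at 50.049 to 50.314 kb. The 3 low-list peaks just outside, between CCSER2 and GRID1, between ZNF365 and ADO and beside NSMCE4A, had 2.60, 2.91 and 2.68 at 49.805 to 49.989 kb.

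The gene nearest to a distal peak was protein-coding for 50.6% of high-list members (48.7 to 52.5%) and 51.2% of low-list members (47.1 to 55.3%). It was a long non-coding RNA gene in 36.0% and 34.8%, and a pseudogene in 12.2% and 13.4%. The nearest coding gene lay at a median of 169 kb (high) and 167 kb (low). It was over 500 kb away for 13.0% of the high-list members (11.7 to 14.3%) and 18% of the low-list members (14.9 to 21.3%). A gene with a provisional LOC name was the nearest coding gene on one side in 16.2% and 14.0%.

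Distal peaks were then counted in each stretch between neighbouring genes of any type. Such a gene-free interval can hold a distal summit when it is longer than 100 kb, and there were 2224 of them. Each is named here by the coding genes on either side, and its eligible length is the part over 50 kb from both ends. The high list hit 1123 intervals (50.5%) and the low list 438 (19.7%). Both lists hit 326 intervals, which is 29.0% of those of the high list and 74.4% of those of the low list. A further 989 held no distal peak of either list. Outside the first and last genes lay 6 distal peaks of the high list and none of the low list, and these are not counted in densities.

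The most crowded interval of the high list held 22 distal peaks. It lies between FAM19A5 and TBC1D22A on chromosome 5 (1569952 to 2528919), with 25.6 peaks per Mb of eligible sequence (16.1 to 38.8) and folds of 2.34 to 3.87. The interval from SALL3, a zinc finger gene of development, to GALR1, a galanin receptor gene, on chromosome 1 held 18 (16.8 per Mb), as did that from ADAMTS16 to the homeobox gene IRX1 on chromosome 16 (18.6 per Mb). The 13 peaks between TEX29 and SOX1, a gene of neural progenitors, on chromosome 11 gave 39.3 per Mb (20.9 to 67.3). The low list had 3, 2, 2 and 3 distal peaks in these 4 intervals.

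The other crowded intervals of the high list lie from COBL to VSTM2A on chromosome 9 with 15 peaks, from AJAP1 to KCNAB2 on chromosome 6 with 14, from PLEKHB2 to HS6ST1 on chromosome 15 with 14 and from BRD1 to LOC106506827 on chromosome 5 with 12. Of the 8 intervals, 5 lie within 5 Mb of the first or last gene of their chromosome: those beside FAM19A5, IRX1, SOX1, COBL and BRD1. In the 3 most crowded, between FAM19A5 and TBC1D22A, SALL3 and GALR1, and ADAMTS16 and IRX1, the strongest peaks had folds of 3.87, 3.37 and 3.94, with q-values of 0.0735 to 0.168.

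The low list was most crowded between BRINP1 and CDK5RAP2 on chromosome 1 and between CASTOR2 and AUTS2 on chromosome 3, with 6 distal peaks each (7.52 and 9.20 per Mb). The high list had 10 and 9 peaks there. Intervals from POU3F1 to RRAGC, LZTS1 to GFRA2 and FLRT2 to GALC each held 5 low-list peaks, beside 7, 11 and 3 of the high list. FLRT2 encodes an adhesion protein and GALC a lysosomal enzyme, and their interval had more low-list than high-list peaks. The interval from NPTX1 to SLC26A11 on chromosome 12 held 4 peaks of each list in 0.0745 Mb of eligible sequence. Intervals from FAM135B to KHDRBS3 and from PLEKHB2 to HS6ST1 also held 4 low-list peaks.

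Long intervals could be nearly empty. Of 51 intervals with at least 1 Mb of eligible sequence, 4 held no distal peak of the high list. The longest of them runs from GRIK2, a kainate receptor gene, to HACE1 on chromosome 1, with 1.65 Mb of eligible sequence, so the upper 95% limit is 2.23 high-list peaks per Mb, and it held 3 low-list peaks. The others run from EPHA7, an ephrin receptor gene, to MANEA on chromosome 1, from RALYL to SNX16 on chromosome 4 and between the cadherin genes CDH12 and CDH10 on chromosome 16, with upper limits of 3.27, 3.01 and 3.62 per Mb and with 3, 1 and 1 low-list peaks. The interval between PCDH9 and KLHL1, the one with most eligible sequence among those named (2.28 Mb), held 4 high-list and 2 low-list peaks.

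**Figure D3:**
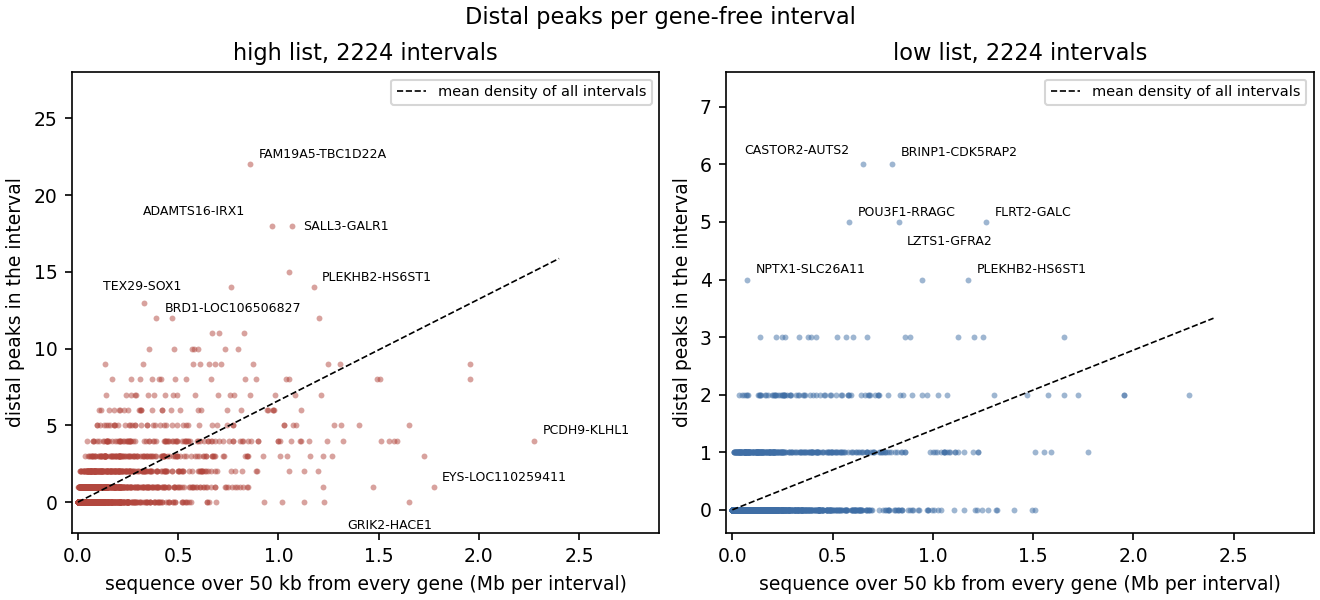
Number of distal peaks (vertical axis) against Mb of sequence over 50 kb from every gene (horizontal axis) for 2224 gene-free intervals, each point 1 interval, with named examples and a dashed line at the mean density. FAM19A5-TBC1D22A (22 peaks) and SALL3-GALR1 (18) stand far above the line in the high list, while GRIK2-HACE1 (0) and EYS-LOC110259411 (1) lie far below it.

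Density was lower in longer intervals in both lists. In the high list it was 10.0 per Mb (9.12 to 11.02) in intervals with up to 0.1 Mb of eligible sequence and 7.89 (7.38 to 8.42) from 0.1 to 0.3 Mb. It was 6.0 (5.66 to 6.35) from 0.3 to 1 Mb and 3.95 (3.48 to 4.46) above 1 Mb. Low-list values were 2.24 (1.82 to 2.73), 1.67 (1.45 to 1.93), 1.18 (1.03 to 1.34) and 0.937 (0.719 to 1.20). Length classes, like the comparisons of chromosome ends and of peaks close together that follow, were chosen after values were seen.

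Within length classes, low-list density was compared between intervals with and without a high-list distal peak. With one it was 2.49, 1.84, 1.23 and 0.884 per Mb in the 4 classes from short to long, and without one 2.08, 1.33, 0.748 and 1.59. The exact Poisson intervals of the 2 kinds overlapped in every class. The longest class without a high-list peak rests on 4 intervals and 8 peaks.

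Genes beside distal peaks were described by lists, which were chosen with earlier results of these data known. Of 2771 coding genes that border an interval long enough to hold a distal peak, 1643 were the nearest coding gene on a side of a distal peak of the high list (59.3%) and 764 of the low list (27.6%). Among 108 bordering genes of developmental transcription factors (homeobox, SOX, FOX and others), 82 bordered a high-list distal peak in this way (75.9%) and 49 a low-list one (45.4%). Among 92 bordering genes of synapses and neuronal adhesion, 80 (87.0%) and 47 (51.1%) were. These shares grow with the sequence beside a gene: the median gene bordered 0.117 Mb of eligible sequence, against 0.211 Mb for the developmental and 1.1 Mb for the synaptic genes.

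Per Mb and over intervals of all lengths, these lists lay on opposite sides of the average. Intervals beside developmental transcription factor genes held 9.75 high-list peaks per Mb (8.83 to 10.8) and 1.81 low-list peaks (1.42 to 2.26). Intervals beside synaptic and adhesion genes held 3.57 (3.22 to 3.95) and 0.854 (0.686 to 1.05). The averages over all intervals were 6.61 and 1.39. No interval bordered genes of both lists. IRX1 bordered 29 high-list and 4 low-list distal peaks, SOX11 18 and 5, BCL11B 17 and 3, KLF4 12 and 3 and POU3F3 12 and 2. Among the synaptic genes PCDH7 bordered 16 and 4 in 4.94 Mb, NCAM2 12 and 4 in 4.26 Mb, and EPHA7 4 and 6 in 3.14 Mb.

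The lists were then compared among intervals of like length. High-list densities beside developmental genes were 11.7 (8.54 to 15.6), 9.56 (7.84 to 11.5), 9.63 (8.37 to 11.02) and 9.19 (6.62 to 12.4) per Mb from the shortest to the longest class. Beside synaptic genes they were 5.95 (3.64 to 9.19), 3.12 (2.32 to 4.10), 3.85 (3.34 to 4.42) and 3.11 (2.54 to 3.76). Intervals beside neither had 10.2 (9.23 to 11.3), 8.57 (7.97 to 9.21), 6.27 (5.83 to 6.72) and 4.10 (3.38 to 4.93). By these counting intervals, developmental intervals were apart from those beside neither in the longer 2 classes, and synaptic intervals in the shorter 3. Counting intervals treat peaks as independent, though 17.3% of high-list distal summits had another within 10 kb. The length classes were not also split by distance from chromosome ends. High-list density was 13.9 per Mb within 5 Mb of an end and 6.01 farther in. The longest developmental class rests on 4 intervals and 42 peaks, of which 18 lie between SALL3 and GALR1. It was not compared without that interval.

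The same comparison in the low list had wider intervals. From the shortest to the longest class, developmental intervals held 1.77 (0.713 to 3.66), 1.68 (1.01 to 2.63), 1.98 (1.43 to 2.67) and 1.31 (0.482 to 2.86) per Mb. Those beside neither held 2.44 (1.96 to 3.003), 1.805 (1.53 to 2.11), 1.19 (1.01 to 1.40) and 0.936 (0.611 to 1.37), and synaptic ones 0.595 (0.0721 to 2.15), 0.978 (0.559 to 1.59), 0.809 (0.583 to 1.09) and 0.888 (0.599 to 1.27). By the counting intervals, with the same limits, developmental intervals were apart from those beside neither only from 0.3 to 1 Mb. Their density was below that of the latter in the shorter 2 classes. Over 5 Mb from chromosome ends, the densities beside developmental, neither and synaptic genes were 8.49, 6.75 and 3.43 in the high list and 1.61, 1.48 and 0.853 in the low list. Base composition, repeats and the share of sequence to which reads can be mapped were not measured here, and their part in these densities was not tested.

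**Figure D4:**
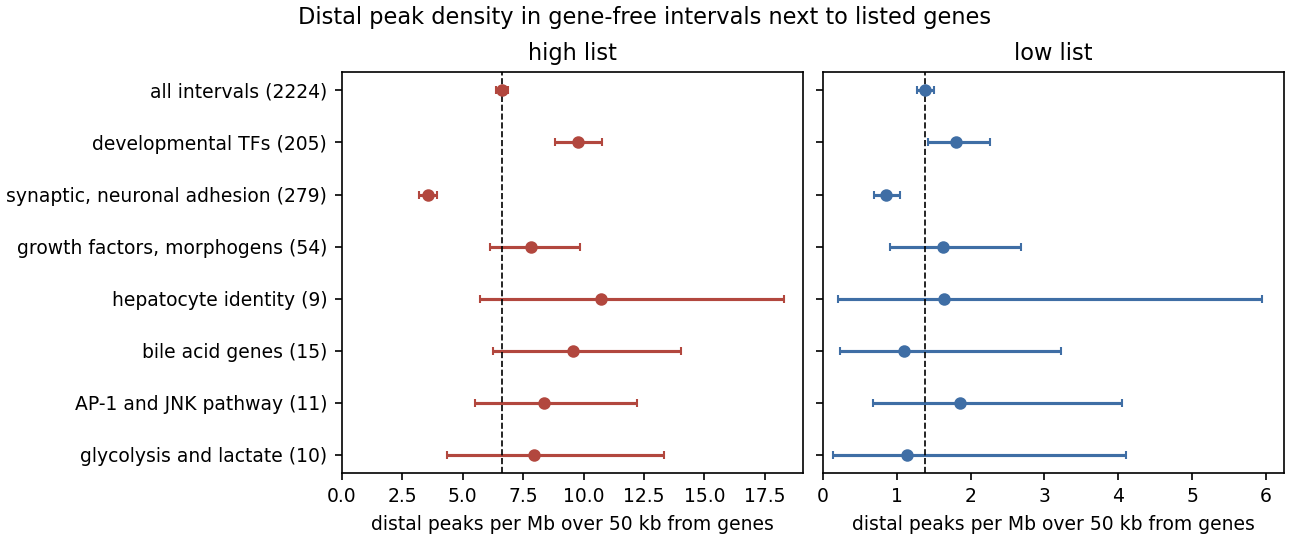
Distal peaks per Mb of sequence over 50 kb from genes (horizontal axes, with exact Poisson 95% intervals) in intervals that border genes of each list, with the number of intervals in parentheses and a dashed line at the density of all intervals. Developmental transcription factors lie above the line (9.75 high, 1.81 low) and synaptic and adhesion genes below it (3.57 and 0.854); the intervals of the short lists cross it in both panels.

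JUN, whose product c-JUN is a component of AP-1 transcription factors, ends a gene-free interval of 282.5 kb on chromosome 6 that starts at the non-coding RNA gene LOC102165506; FGGY is the next coding gene on that side. The high list held 5 distal peaks in its 0.183 Mb of eligible sequence, 27.4 per Mb (8.89 to 63.9), and the low list held 1. The high-list summits lay 208, 200, 188, 182 and 124 kb from JUN, with folds of 2.58, 3.42, 2.60, 2.80 and 2.86 on 7, 12, 9, 9 and 10 fragments and q-values of 0.139 to 0.5. The low-list summit lay 153 kb from JUN, with a fold of 2.84 (q 1) on 10 fragments, and was 28.7 kb from the nearest high-list summit. Peaks of either list overlapped at none of these positions, and none of the 6 passed a q of 0.05.

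Of 6 bordering genes of the AP-1 and JNK pathway, 4 bordered a high-list distal peak as its nearest coding gene on a side. In the low list 3 did so. The list is too short to set apart from the background of 59.3% and 27.6%. Besides JUN, these genes included MAP3K7, which encodes the kinase TAK1, with 4 high-list peaks, a highest fold of 3.69 and 2 low-list peaks. MAPK10, a JNK gene, had 1 high-list peak of fold 2.08. The MAP3K7 peak of fold 3.69 lay 1171 kb from that gene and 1052 kb from EPHA7. The 2 low-list peaks lay 1831 and 1883 kb from MAP3K7 and 393 and 341 kb from EPHA7. MAP3K1 and DUSP10 bordered none in either list, in 0.0167 and 0.0133 Mb of eligible sequence.

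Most genes of bile acid metabolism do not border an interval that can hold a distal peak. Of 43 annotated genes of synthesis, transport and signalling, 6 border an interval over 100 kb. Of these, 4 (66.7%) were the nearest coding gene on a side of a high-list distal peak and 2 (33.3%) of a low-list one. These shares are near those of all bordering genes (59.3% and 27.6%). SLC10A2, the apical sodium-dependent bile acid carrier gene, bordered 19 high-list and 2 low-list peaks in 2.07 Mb, spread over several gene-free intervals. The strongest of these, at chromosome 11, 73906210 to 73906656, had a fold of 4.01 (q 0.0528) but lay 2558 kb from SLC10A2 and 282 kb from EFNB2, the nearest gene. AKR1D1, which encodes a reductase of bile acid synthesis, had 2 high-list peaks, the stronger of fold 2.98. NR5A2, which encodes LRH-1, a nuclear receptor of the same pathway, had 4 high-list peaks of fold up to 3.02 and 1 low-list peak of 2.89. ATP8B1, a phospholipid flippase gene of familial cholestasis, had 1 high-list peak of fold 2.34. ABCC4 and MYO5B had none, in 0.188 and 0.00416 Mb of eligible sequence.

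Among 6 bordering genes of hepatocyte identity, 4 (66.7%) were the nearest coding gene on a side of high-list distal peaks. For the low list it was 2 (33.3%), and both shares were again near the 59.3% and 27.6% of all bordering genes. PROX1 had 4 high-list peaks, with a highest fold of 3.69 towards SMYD2 on chromosome 9, and 1 low-list peak of 2.98. ONECUT1 had 3 high-list peaks of fold up to 3.36 and FOXA2 had 2 of fold up to 3.14, with none in the low list. The peak of fold 3.14 lay 143 kb from FOXA2 and 74.7 kb from THBD. Of 6 bordering genes of glycolysis and lactate, 2 (33.3%) were the nearest coding gene on a side of a high-list distal peak. For the low list it was 1 (16.7%), against the same backgrounds. PFKP, which encodes a phosphofructokinase, had 13 high-list peaks in 0.658 Mb and no low-list peak. One of the 13, towards ADARB2 on chromosome 10, had a fold of 4.23 (q 0.0316). It lay at 67419050 to 67419442, on a chromosome with 68.8 Mb between its first and last genes. The 19.7 high-list peaks per Mb compare with 6.61 over all intervals and 13.9 within 5 Mb of a chromosome end. The low-list averages were 1.39 and 2.19. PFKFB3, whose product makes an activator of phosphofructokinase, had 1 high-list peak of fold 2.96 and 2 low-list peaks of fold up to 3.27. HK2, SLC16A7, HIF1A and SLC2A1 had none, in 0.0465, 0.850, 0.0860 and 0.0424 Mb of eligible sequence.

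Growth factor and morphogen genes lay close to the average of all intervals in density, with 7.81 high-list peaks per Mb (6.11 to 9.84) and 1.63 low-list peaks (0.911 to 2.68). Of 32 bordering genes, 23 (71.9%) were the nearest coding gene on a side of a high-list distal peak and 12 (37.5%) of a low-list one. Over all bordering genes the shares were 59.3% and 27.6%. BMP4, a bone morphogenetic protein gene, had a highest fold of 4.03 in the high list and no low-list peak. BMP7 had 3.84 (high) and 2.997 (low), from separate peaks, and FST, which encodes the BMP and activin antagonist follistatin, had 3.69 and 2.98. Among the developmental factors, the highest folds after MSX2 and TCF7L2 included EBF2 with 4.36 (q 0.031). Among the synaptic genes ADGRL3 and CDH6 each had 4.36 (q 0.031) in the high list, and 3.74 and 3.27 in the low list (q 1). The ADGRL3 peaks lay 447 kb (high) and 1177 kb (low) from ADGRL3. Those of CDH6 lay 1557 kb (high) and 630 kb (low) from it, in the stretch between CDH9 and CDH6.

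Markers of liver and blood cell types seldom border long gene-free intervals, so distal peaks say little of the labelled cell type. Of 10 hepatocyte markers only CPS1 borders one, with 0.00927 Mb of eligible sequence, and no distal peak lay there in either list. None lay beside the bordering markers of Kupffer cells (MARCO), stellate cells (COL3A1 and DCN) or endothelium (CDH5 and KDR), and no lymphocyte marker borders such an interval. Of the bordering cholangiocyte markers, SOX9 had 9 high-list and 2 low-list peaks in 1.34 Mb and EPCAM had none in 0.00134 Mb.

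Of the distal summits of the high list, 17.3% (484 of 2791; 16.0 to 18.8%) had another within 10 kb, against 6.34% of the low list (37 of 584; 4.50 to 8.63%), whose density is lower. Chains of at least 3 peaks with steps of up to 10 kb numbered 19 (high) and 3 (low). The longest held 4 peaks in 18.9 kb between EFCAB1 and UBE2V2 on chromosome 4 (79482059 to 79500953), with folds of 2.45 to 3.36. The other 18 chains of the high list held 3 peaks each, and the highest fold in any of them was 4.03, between TCF4 and TXNL1 on chromosome 1. The 3 chains of the low list lay in the crowded intervals beside NPTX1, LZTS1 and FLRT2.

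Chromosome ends were dense in distal peaks. Intervals within 5 Mb of the first or last gene of a chromosome held 13.9 per Mb in the high list (12.7 to 15.3), against 6.01 (5.77 to 6.26) farther in. The low list had 2.19 (1.71 to 2.76) and 1.32 (1.21 to 1.44). High-list density was 7.44 per Mb from 5 to 10 Mb, 6.73 from 10 to 20 Mb and 5.73 from 20 to 40 Mb from an end. Beside developmental genes near the ends it was 15.1 (12.5 to 18.1), beside synaptic and adhesion genes 16.2 (9.58 to 25.5, from 18 peaks in 5 intervals) and beside neither of these lists 13.4 (11.97 to 15.01). In the high list the order of the gene lists farther in was thus not seen near the ends, where all 3 intervals overlapped. Low-list densities near the ends were 2.64 (1.64 to 4.04) beside developmental genes and 2.09 (1.54 to 2.77) beside neither. Beside synaptic genes the low list had 0.898 (0.0227 to 5.003), from 1 peak. That order was the one seen farther in, and these intervals overlapped too.

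Between chromosomes, distal density was lowest on chromosome 13 (4.85 per Mb) and highest on chromosome 17 (9.42) for high-list peaks. For low-list peaks it was lowest on chromosome 15 (0.881) and highest on chromosome 18 (2.82). Chromosomes that were dense outside distal sequence tended to be dense in it, with a Pearson r of 0.63 and a Spearman rho of 0.72 in the high list and 0.57 and 0.61 in the low list over 18 chromosomes. Distal densities of the lists were related with an r of 0.69 and a rho of 0.67. The chromosomes of a list share 1 library and its input and differ in gene content and base composition, so these values are descriptions. Chromosome 12 was the densest outside distal sequence in both lists, at 24.9 and 3.85 per Mb, and had 8.78 (6.65 to 11.4) and 2.16 (1.18 to 3.62) within it.

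**Figure D5:**
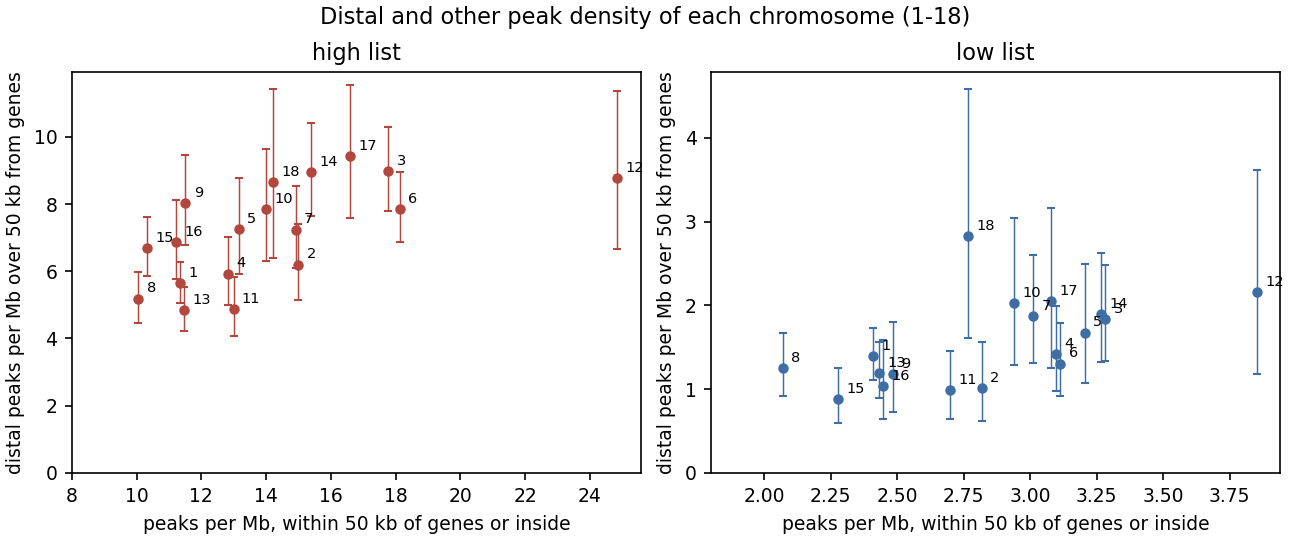
Distal peaks per Mb (vertical axis, with exact Poisson 95% intervals) against peaks per Mb inside or within 50 kb of genes (horizontal axis, not starting at 0) for chromosomes 1 to 18, which label the points. Chromosomes 13 and 17 are the lowest and highest of the high list at 4.85 and 9.42 distal peaks per Mb.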

How the data were processed

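The data were the deposited narrow peaks of the immunoprecipitated libraries, 1 list each; input libraries entered only as the background of the authors' caller. The submitters' processing notes list MACS2 2.1.0, Bowtie 1.1.2, Trimmomatic 0.33 and bcl2fastq 2.17. They name the human build hg38 beside the pig build Sscrofa11.1. In the high list the largest peak coordinate of each chromosome lay between 121 kb before and 101 kb after the end of its last Sscrofa11.1 gene, and pig coordinates were used. Fold enrichment at the summit is the authors' deposited ratio over local background, in which 1 is added to the observed and to the expected number. The p-values and q-values are the authors' own, deposited as −log10 per peak. The deposited score, a display value, was not used. No source used here states the cutoff; no p-value in either list exceeded 0.00989. Each library was called on its own, with no pooling, and a group is 1 library named by its title.

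Gene positions are those of RefSeq for Sscrofa11.1 (26902 genes of any type on chromosomes 1 to 18, of which 18722 are coding). The table gives starts and ends but no strand or exons, so parts of genes were not separated; no genome sequence was used. The summit is the start plus the deposited offset, written 1-based. Densities divide by sequence over 50 kb from genes between the first and last gene of a chromosome. Fragments at a summit were solved from fold and p-value within 0.002 in −log10 p, after finding the caller's pileup factor (1 high, 0.881 low). This step was tested on simulated data. Fragment counts are given before that factor and expected numbers in the caller's units after it. Shares carry exact Clopper-Pearson and counts exact Poisson 95% intervals. Overlap means at least 1 bp. Peaks on X and Y (61 high, 5 low) were left out by the rule.

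The members, 14 gene lists (475 of 490 symbols found) and alternatives were chosen with earlier results of these data known. Named peaks are the 10 of highest fold, those with a q of 0.05 or smaller (up to 15, by q), all that overlap the other list, the 5 farthest and the 5 widest, the 3 on either side of 50 kb, and up to 3 genes of each list by fold; named intervals are the 8 with most peaks. A few items that the rule names are not reported here. The other peaks of the JUN interval, the other listed genes given with counts, the nearly empty intervals, the chains and the peaks beside LRRN1 and ALG10 were named after their values were seen. Alternatives changed the distance, the gene set, the peak threshold, the peak position and the overlap. Computation used Python 3.11.15, numpy 2.4.6, pandas 2.3.3, scipy 1.17.1 and matplotlib 3.10.9.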

Additional observations from a re-analysis of the deposited data

Results flagged for a closer look

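Peaks far from genes also occurred on chromosomes X and Y, which the rule leaves out and which no comparison above uses. In the high list 8 of 53 peaks on chromosome X lay over 50 kb from every gene, with folds of 2.78 to 4.36, and the strongest had a q of 0.031. On chromosome Y it was 5 of 8 peaks of the high list, with folds of 1.93 to 3.09. The low list had 1 of 4 on X and 1 of 1 on Y. The Y peak of smallest q in the high list had a fold of 1.94 (q 1.67e-179), and the one in the low list had 1.40 (q 1.35e-41). The samples are labelled female.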

How the results depend on the processing

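No paired analysis was possible because the labels give no replicate numbers and each group has 1 immunoprecipitated library. With the midpoint in place of the summit, all values were within their intervals. The distal share of the high list (9.89%) was 16.8% with a distance of 20 kb, 5.46% with 100 kb, 17.7% with coding genes only and 6.81% among peaks with a q of 0.05 or smaller; that of the low list (10.2%) was 17.1%, 5.60%, 18.6% and 0%, and 13.9% with a fold of 4 or more. High-list density per Mb (6.61) was 7.70, 5.69 and 7.23 under the first 3 settings, 0.0973 with a q of 0.05 or smaller and 0.204 with a fold of 4 or more; the low-list values (1.39) were 1.60, 1.19, 1.54, 0 and 0.0261. Both filters keep fewer peaks, which lowers density and raises the median fold by construction, to 4.36 and 4.03 for the high list and, with a fold of 4 or more, to 4.15 in the low list, where no distal peak was left by q. The 4 overlaps were 18 at 20 kb, 12 with coding genes only, 0 under either filter and 14 when a summit within 1 kb of a peak of the other list counted. As alternatives added after seeing the data, density without intervals within 5 Mb of chromosome ends was 6.01 (high) and 1.32 (low), and without the pileup factor the counts of peaks at or above the other library's limit were 8 and 36 in place of 43 and 10. The median distal peak rests on 9 fragments in either list, so single values are imprecise.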
